A study of Sus scrofa with 10 samples.

Results

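Tissue grown from testicular fibroblasts alone was compared with control testis of the pig (Sus scrofa), using 4 graft libraries and 2 control libraries, 6 of the 10 libraries of the study. The graft group, named FO for fibroblast only, is described in its labels as primary testicular fibroblasts that were put into the dorsal skin of a mouse, spelled SKID in the labels, together with concentrated Matrigel, and recovered after 6 months. The control libraries are titled 5D testis tissue, a code that the labels do not explain, so the age of that testis is not known here. Their labels name germ cells and testicular fibroblasts as the cell type and repeat the growth field of the grafts, and the titles alone set them apart. The remaining 4 libraries, GF, come from grafts of fibroblasts with germ cells added, grown for the same 6 months. They enter the low-count filter, the scaling and the estimate of the spread between libraries, and their values are named as such where given. The design text asks whether germ cells influence how testicular tissue is remodelled, and FO grafts are the grafts without added germ cells. The purity of the grafted fibroblasts is not given. The labels do not say whether replicates came from separate animals or cultures, so the p-values measure the spread between these libraries, which may be partly technical.

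Mammalian testis holds seminiferous tubules, in which Sertoli cells nurse the germ cells, wrapped by a basement membrane and contractile peritubular cells. Between the tubules lie Leydig cells, which make androgens from cholesterol and the hormone INSL3, along with fibroblasts, vessels and macrophages. Fibroblasts make the fibrillar collagens and much of the signalling environment of the tissue. QuantSeq counts reads at the 3' end of polyadenylated transcripts, and the values below are CPM, counts per 1000000 counts of the library scaled with TMM factors. The table names pig genes, and how far mouse host cells contribute was not tested.

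Libraries held 5844944 and 7013911 counts in control testis and 4033509 to 4887878 in FO, and 3 counts correspond to 0.428 to 0.513 CPM in a control library and 0.614 to 0.744 CPM in an FO library. Over all tested genes the log2 CPM of FO libraries correlated with each other at r = 0.954 to 0.973 and with control libraries at r = 0.82 to 0.863, as a description across genes that are not independent. Of 15877 genes tested with edgeR's quasi-likelihood test, 2972 passed a Benjamini-Hochberg adjusted p of 0.05, 18.7% of all. They divided into 1290 genes higher in FO (8.12%) and 1682 lower (10.6%), and 210 of the former and 270 of the latter differed by more than 16-fold. The median log2 fold change of all tested genes was -0.04, and in 26.7% and 32% of them every FO library lay above or below both controls. Below, higher, lower, rose and fell are used of genes that passed, and a log2 fold change is FO minus control with its SE. The number of calls depends on the libraries: 977 genes passed without control 1 and 796 without control 2. A fit of the 6 FO and control libraries alone, called the 6-library fit below, called 6600, and a fit without GF 3 and GF 4, which lie farthest out on the first principal component and hold the fewest counts (2915534 and 2948156), called 6510. Of the 2972, no gene that these fits tested changed sign. The genes were called on the same libraries, so a change of sign was unlikely from the start. Counts of list members move with these totals, and each stands beside the 8.12% of all tested genes that were higher and the 10.6% lower. A count that moved by more than 1.5 times without a control or FO library, without GF 3 and GF 4, in the 6-library fit or with total counts as scaling is given. Where leaving out libraries or another scaling, filter or test ended a gene's call or moved its fold by more than 1.5 times, the setting is named, with the log2 fold change it gave where both groups hold more than 3 counts. Control values are always listed as control 1, then control 2. Mitochondrial transcripts took 6.59% and 7.62% of counts in the controls and 8.15% to 11.6% in FO, highest in FO 1.

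**Figure D1:**
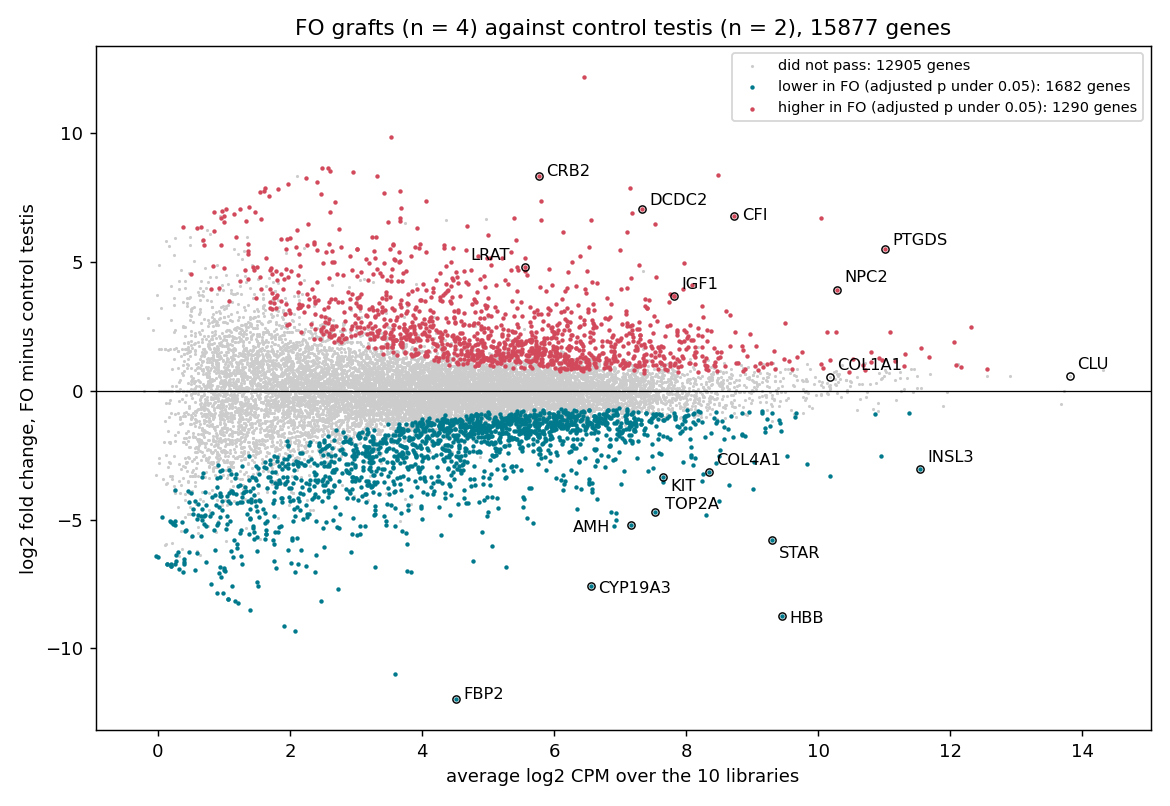
Average log2 CPM over the 10 libraries (x axis) against the log2 fold change of FO minus control testis (y axis) for the 15877 tested genes, with the 1290 genes higher in FO, the 1682 lower and those that did not pass in separate colours. Steroid, germ cell and blood genes such as STAR, CYP19A3 and HBB lie far below 0, and CRB2, DCDC2 and CFI far above it.

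Transcripts known from fibroblasts and from further cell types of the testis were detected in the grafts. The label of FO is testicular fibroblast, and of the 24 genes of the fibroblast identity list, 24 were in the table and 23 passed the low-count filter, of which 8 were higher, 4 lower and 11 did not pass the test (median log2 fold change 0.29). Summed over the list, levels were 3322 to 3485 CPM in control testis and 3285 to 5077 CPM in FO, so that these libraries overlapped. COL1A1, the main fibrillar collagen chain, read 976 and 1146 CPM in the controls and 1413, 1125, 1436 and 2207 CPM in FO 1 to FO 4 and did not pass (log2 fold change 0.54 ± 0.32, adjusted p = 0.266). COL3A1, its partner in loose connective tissue, stood at 1441 and 1448 CPM in the controls and 800.3, 494, 552 and 739.9 CPM in FO 1 to FO 4. All 4 FO libraries lay below both controls, yet the difference did not pass (log2 fold change -1.16 ± 0.39, adjusted p = 0.0549). Among genes used as markers of other cell types, SOX9 of Sertoli cells was detected at 213 to 281 CPM in FO, CYP11A1 of Leydig cells at 93.1 to 424 CPM and PECAM1 of endothelium at 11.96 to 47.3 CPM. Detection of single markers does not show that a cell type was present. Other markers of the same cell types, such as AMH, STAR and VWF below, were far lower than in control testis. DDX4, the germ cell helicase, lay at 0.424 to 1.96 CPM, around the level of 3 counts. In whole tissue, fewer cells of a type and less RNA per cell cannot be told apart. COL3A1 passed the test by the DESeq2 Wald test (-1.13), with no low-count filter (-1.19), without GF 1 (-1.13), without GF 4 (-1.16), without GF 3 and GF 4 (-1.13) and in the 6-library fit (-1.12).

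Most tested genes of the Leydig cell were lower in FO. Of the 27 genes of the Leydig list, 26 were in the table and 22 passed the low-count filter, of which 1 was higher, 13 lower and 8 did not pass the test (median log2 fold change -1.90), beside 10.6% of all tested genes that were lower. STAR, which moves cholesterol into the mitochondrion where steroid synthesis starts (chromosome 15, 48377597 to 48385398, RefSeq on Sscrofa11.1, the build the submitters' notes name), lay at 2904 and 2959.9 CPM in the controls and 17.0, 52.0, 101.1 and 40.7 CPM in FO 1 to FO 4. The FO libraries lay far below both controls and fell with a log2 fold change of -5.79 ± 0.54 (adjusted p = 2.12e-05). CYP11A1, which cuts the cholesterol side chain (chromosome 7, 59172829 to 59188479), read 1628 and 1699 CPM in the controls and 93.1, 189, 424 and 267 CPM in FO 1 to FO 4 (log2 fold change -2.77 ± 0.44, adjusted p = 0.000803). CYP17A1, which makes the precursors of androgens (chromosome 14, 113805616 to 113820445), was measured at 931 and 852 CPM in the controls and 29.0, 48.5, 223 and 82.4 CPM in FO 1 to FO 4 (log2 fold change -3.22 ± 0.69, adjusted p = 0.006). In each of these 3 genes FO 3 was the highest FO library and FO 1 the lowest, and no FO library reached a control. CYP19A3, one of several near-identical pig aromatase genes between which 3' reads may be divided (chromosome 1, 120476890 to 120556103), read 429 and 466 CPM in the controls and 0, 1.31, 7.55 and 0 CPM in FO 1 to FO 4. Nearly all of its FO counts came from FO 3 (log2 fold change -7.58 ± 0.84, adjusted p = 6.77e-05). Higher Leydig genes numbered 0 without control 1, control 2, FO 1 or FO 2 and 2 without GF 3 and GF 4 and in the 6-library fit.

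Transcripts of accessory proteins of steroid synthesis were lower too. CYB5A, cytochrome b5, stood at 5083 to 6464 CPM in control testis and 616 to 1777 CPM in FO (log2 fold change -2.52 ± 0.41, adjusted p = 0.000906). POR, which passes electrons to microsomal P450 enzymes, lay at 122 to 126 CPM in control testis and 17.2 to 33.98 CPM in FO (log2 fold change -2.22 ± 0.32, adjusted p = 0.000438). FDXR, which serves the mitochondrial ones, read 262 to 269 CPM in control testis and 17.8 to 65.2 CPM in FO (log2 fold change -2.73 ± 0.43, adjusted p = 0.00079). INSL3, the Leydig cell hormone of testicular descent (chromosome 2, 59929591 to 59931220), was measured at 8207 and 10774 CPM in the controls and 271, 1066, 2769 and 503 CPM in FO 1 to FO 4. It remained detected in every FO library and fell with a log2 fold change of -3.04 ± 0.64 (adjusted p = 0.00528). LHCGR, the receptor for luteinizing hormone, read 303 and 294 CPM in the controls and 33.4, 86.3, 116 and 34.3 CPM in FO 1 to FO 4 (log2 fold change -2.14 ± 0.57, adjusted p = 0.018). NR5A1, the nuclear receptor that drives steroid genes, stood at 72.4 and 70.0 CPM in the controls and 13.4, 13.7, 41.3 and 26.7 CPM in FO 1 to FO 4 and passed narrowly (log2 fold change -1.58 ± 0.52, adjusted p = 0.0489). HSD3B1, which converts pregnenolone-type steroids, lay at 47.5 and 61.0 CPM in the controls and 32.6, 57.2, 72.4 and 89.6 CPM in FO 1 to FO 4. Its groups overlapped and it did not pass (log2 fold change 0.22 ± 0.49, adjusted p = 0.809). CYP17A1 moved to -4.06 without FO 3. CYP19A3 moved to -9.84 without FO 3. INSL3 lost its call without GF 3 and GF 4 (-3.00) and in the 6-library fit (-3.00). INSL3 moved to -3.95 without FO 3. LHCGR lost its call without control 1 (-2.13), control 2 (-2.18), FO 1 (-1.92) or FO 4 (-1.92). NR5A1 lost its call without control 1 (-1.56), control 2 (-1.61), FO 1 (-1.38), FO 2 (-1.38), FO 4 (-1.63) or GF 1 (-1.54), with RLE size factors (-1.55), after thinning to the lowest total (-1.59) and against a fold of 1.5.

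Most genes of cholesterol synthesis, uptake and efflux were lower. Of the 28 genes of the cholesterol list, 26 were in the table and 26 passed the low-count filter, of which 2 were higher, 17 lower and 7 did not pass the test (median log2 fold change -1.72). SCARB1, the receptor that takes up cholesterol from HDL, read 289 and 353 CPM in the controls and 5.57, 13.5, 22.7 and 10.6 CPM in FO 1 to FO 4 (log2 fold change -4.60 ± 0.48, adjusted p = 4.44e-05). FDPS, farnesyl diphosphate synthase, was measured at 78.8 to 114 CPM in control testis and 8.36 to 22.4 CPM in FO (log2 fold change -2.51 ± 0.38, adjusted p = 0.000619). CYP51, the lanosterol demethylase, read 237 to 241 CPM in control testis and 33.1 to 44.5 CPM in FO (log2 fold change -2.59 ± 0.26, adjusted p = 3.51e-05). The opposite was seen for NPC2, a lysosomal protein that hands cholesterol out of the lysosome, which stood at 184 and 148 CPM in the controls and 3463, 2229, 2325 and 2124 CPM in FO 1 to FO 4. Its lowest FO library was over 10 times its highest control (log2 fold change 3.93 ± 0.49, adjusted p = 0.000144). Through NPC2, the summed levels of the list came close, at 5483 to 6437 CPM in control testis and 3788 to 4754 CPM in FO. Higher cholesterol genes numbered 1 without control 1, control 2, FO 1 or FO 2. Lower cholesterol genes numbered 9 without control 1 and 10 without control 2.

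Defining germ cell transcripts were near the level of 3 counts in FO. Of the 31 genes of the early germ cell list, 29 were in the table and 23 passed the low-count filter, of which 1 was higher, 16 lower and 6 did not pass the test (median log2 fold change -3.51). DDX4 lay at 20.8 and 20.9 CPM in the controls and 0.557, 1.96, 1.68 and 0.424 CPM in FO 1 to FO 4 (log2 fold change -4.11 ± 0.48, adjusted p = 8.75e-05). DAZL, a germ cell RNA-binding protein, read 12.7 and 13.9 CPM in the controls and 0.279, 1.96, 1.47 and 0.212 CPM in FO 1 to FO 4 (log2 fold change -3.69 ± 0.78, adjusted p = 0.00544). For both genes FO 2 and FO 3 were higher than FO 1 and FO 4, and all 4 lay below the controls. TDRD6, a Tudor protein of germ granules, was measured at 27.5 and 19.04 CPM in the controls and 1.39, 1.09, 1.26 and 0.212 CPM in FO 1 to FO 4 (log2 fold change -4.54 ± 0.50, adjusted p = 6.09e-05). KIT, the stem cell factor receptor that Leydig and mast cells also carry (chromosome 8, 41402334 to 41492306), read 711 and 715 CPM in the controls and 52.4, 55.5, 81.6 and 90.9 CPM in FO 1 to FO 4. It remained clearly detected in FO and fell with a log2 fold change of -3.34 ± 0.27 (adjusted p = 8.89e-06). UCHL1, a ubiquitin hydrolase of spermatogonia and neurons, stood at 37.1 and 39.1 CPM in the controls and 39.3, 54.2, 41.9 and 84.8 CPM in FO 1 to FO 4 and did not pass (log2 fold change 0.53 ± 0.36, adjusted p = 0.347). The higher member was ID4, an inhibitor of helix-loop-helix factors used as a marker of spermatogonial stem cells and also made by other cells, which lay at 8.41 and 5.74 CPM in the controls and 217, 106, 92.5 and 118 CPM in FO 1 to FO 4 (log2 fold change 4.23 ± 0.44, adjusted p = 4.44e-05).

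Meiotic genes that passed were lower, with 1 exception. Of the 30 genes of the meiosis and spermatid list, 29 were in the table and 27 passed the low-count filter, of which 1 was higher, 8 lower and 18 did not pass the test (median log2 fold change -1.15), and 6 listed genes had no count in FO. SYCP3, a synaptonemal complex protein, read 40.2 and 32.9 CPM in the controls and 0, 1.74, 1.05 and 0.212 CPM in FO 1 to FO 4 (log2 fold change -5.50 ± 0.61, adjusted p = 6.73e-05). SYCP1, from the same complex, was measured at 28.7 and 23.6 CPM in the controls and 1.67, 4.57, 1.26 and 1.06 CPM in FO 1 to FO 4 (log2 fold change -3.59 ± 0.67, adjusted p = 0.0026). STAG3 and SMC1B, meiotic cohesin subunits, read 32.8 to 38.5 CPM in control testis and 2.94 to 4.46 CPM in FO, and 35.3 to 47.9 CPM in control testis and 1.11 to 5.87 CPM in FO (log2 fold changes -3.37 ± 0.42 and -3.40 ± 0.45, adjusted p = 0.000139 and 0.000231). In all of these genes, no FO library reached a control. Another 3 genes stood among the 12 largest falls of symbol-bearing genes without overlap that average 4 or more in log2 CPM. TEX15, needed for meiotic recombination, stood at 76.2 and 66.0 CPM in the controls and 0.279, 0.870, 2.31 and 0.636 CPM in FO 1 to FO 4 (log2 fold change -6.03 ± 0.66, adjusted p = 6.02e-05). BRDT, the testis-specific bromodomain protein, had 156 and 129 counts in the controls and 0, 2, 1 and 0 in FO 1 to FO 4, so that control testis was 132-fold (95% counting interval 44.8 to 646) higher. C5H12orf50, whose role is not given here, had 34 and 53 counts in the controls and 0, 1, 1 and 0 in FO 1 to FO 4, and control testis was 60.6-fold (95% counting interval 16.3 to 508) higher. Without FO 2 the ratio of BRDT was 294-fold (95% counting interval 52.3 to 11640.0). Higher meiosis and spermatid genes numbered 0 without control 1, control 2, FO 2 or FO 4 and 3 without GF 3 and GF 4. Lower meiosis and spermatid genes numbered 4 without control 1 and 5 without control 2. SYCP3 moved to -6.26 without FO 2. SYCP1 moved to -4.29 without FO 2. TEX15 moved to -6.79 without FO 3.

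Most cell division genes fell. Of the 29 genes of the cell division list, 29 were in the table and 29 passed the low-count filter, of which 0 were higher, 25 lower and 4 did not pass the test (median log2 fold change -3.13). In all 29 the 4 FO libraries lay below both controls, where 32% of all tested genes did so. TOP2A, the topoisomerase of dividing cells, lay at 502 and 583 CPM in the controls and 10.6, 22.0, 32.7 and 16.5 CPM in FO 1 to FO 4 (log2 fold change -4.72 ± 0.44, adjusted p = 2.12e-05). CENPF and CENPE, kinetochore proteins, read 379 to 387 CPM in control testis and 7.20 to 22.7 CPM in FO, and 160.3 to 167 CPM in control testis and 7.63 to 15.1 CPM in FO (log2 fold changes -4.75 ± 0.38 and -3.79 ± 0.32, adjusted p = 8.89e-06 and 1.02e-05). BUB1B, a spindle checkpoint kinase, was measured at 47.5 to 48.2 CPM in control testis and 1.67 to 4.19 CPM in FO (log2 fold change -4.15 ± 0.40, adjusted p = 2.45e-05). MKI67, the antigen of proliferating cells, read 55.7 and 56.4 CPM in the controls and 0.836, 0.870, 3.78 and 4.03 CPM in FO 1 to FO 4 (log2 fold change -4.52 ± 0.58, adjusted p = 0.000188). FO 3 and FO 4 exceeded FO 1 and FO 2 for MKI67, at values still more than 10 times below the controls.

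Sertoli cell genes divided rather than moving together. Of the 24 genes of the Sertoli cell list, 24 were in the table and 21 passed the low-count filter, of which 6 were higher, 3 lower and 12 did not pass the test (median log2 fold change 0.40). AMH, the hormone of immature Sertoli cells that removes the Müllerian duct (chromosome 2, 76415564 to 76418315), stood at 446 and 521 CPM in the controls and 5.85, 8.05, 31.5 and 6.36 CPM in FO 1 to FO 4. FO 3 was the highest of the grafts and still more than 10 times below the controls (log2 fold change -5.21 ± 0.72, adjusted p = 0.000309). WT1, a transcription factor of Sertoli cells and other gonadal mesenchyme (chromosome 2, 28411467 to 28456007), lay at 103 and 104 CPM in the controls and 512, 485, 354 and 502 CPM in FO 1 to FO 4. All FO libraries were above both controls and it rose (log2 fold change 2.17 ± 0.29, adjusted p = 0.000243). PTGDS, prostaglandin D synthase, which acts with SOX9 in the fetal testis, read 49.0 and 56.4 CPM in the controls and 2513, 1705, 2079 and 3303 CPM in FO 1 to FO 4 (log2 fold change 5.51 ± 0.59, adjusted p = 5.16e-05). ERBB4, a neuregulin receptor, was measured at 5.94 and 3.78 CPM in the controls and 110.1, 75.9, 63.1 and 73.9 CPM in FO 1 to FO 4 (log2 fold change 4.05 ± 0.36, adjusted p = 1.71e-05). SOX9, the factor that starts Sertoli cell fate, read 198 and 174 CPM in the controls and 262, 281, 276 and 213 CPM in FO 1 to FO 4. Its FO libraries also lay above the controls, and the difference did not pass (log2 fold change 0.47 ± 0.24, adjusted p = 0.189). CLU, clusterin, an abundant Sertoli cell secretory product, stood at 3607 and 4072 CPM in the controls and 4892, 6436, 7715 and 3894 CPM in FO 1 to FO 4 and did not pass, with FO 4 lying between the controls (log2 fold change 0.58 ± 0.45, adjusted p = 0.411). Summed levels of the list were 6522 to 7349 CPM in control testis and 9705 to 12620.3 CPM in FO. On group means this difference came mostly through PTGDS and CLU, of which CLU did not pass.

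Among transcription factors of the gonad, of the 22 genes of the gonadal factor list, 22 were in the table and 18 passed the low-count filter, of which 5 were higher, 1 lower and 12 did not pass the test (median log2 fold change 0.24). Besides WT1, EMX2, a homeobox factor of the early gonadal ridge, lay at 2.80 and 3.78 CPM in the controls and 118, 90.3, 57.5 and 82.8 CPM in FO 1 to FO 4 (log2 fold change 4.71 ± 0.40, adjusted p = 1.14e-05). No FO library overlapped the controls in EMX2. Lower Sertoli cell genes numbered 1 without control 2. Lower gonadal factor genes numbered 0 without control 1, control 2, FO 1, FO 2 or FO 4 and 3 without GF 3 and GF 4 and in the 6-library fit. AMH moved to -6.15 without FO 3. SOX9 passed the test without GF 3 and GF 4 (0.50) and in the 6-library fit (0.51). CLU passed the test without GF 3 and GF 4 (0.61). EMX2 moved to 5.32 after thinning to the lowest total.

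**Figure D2:**
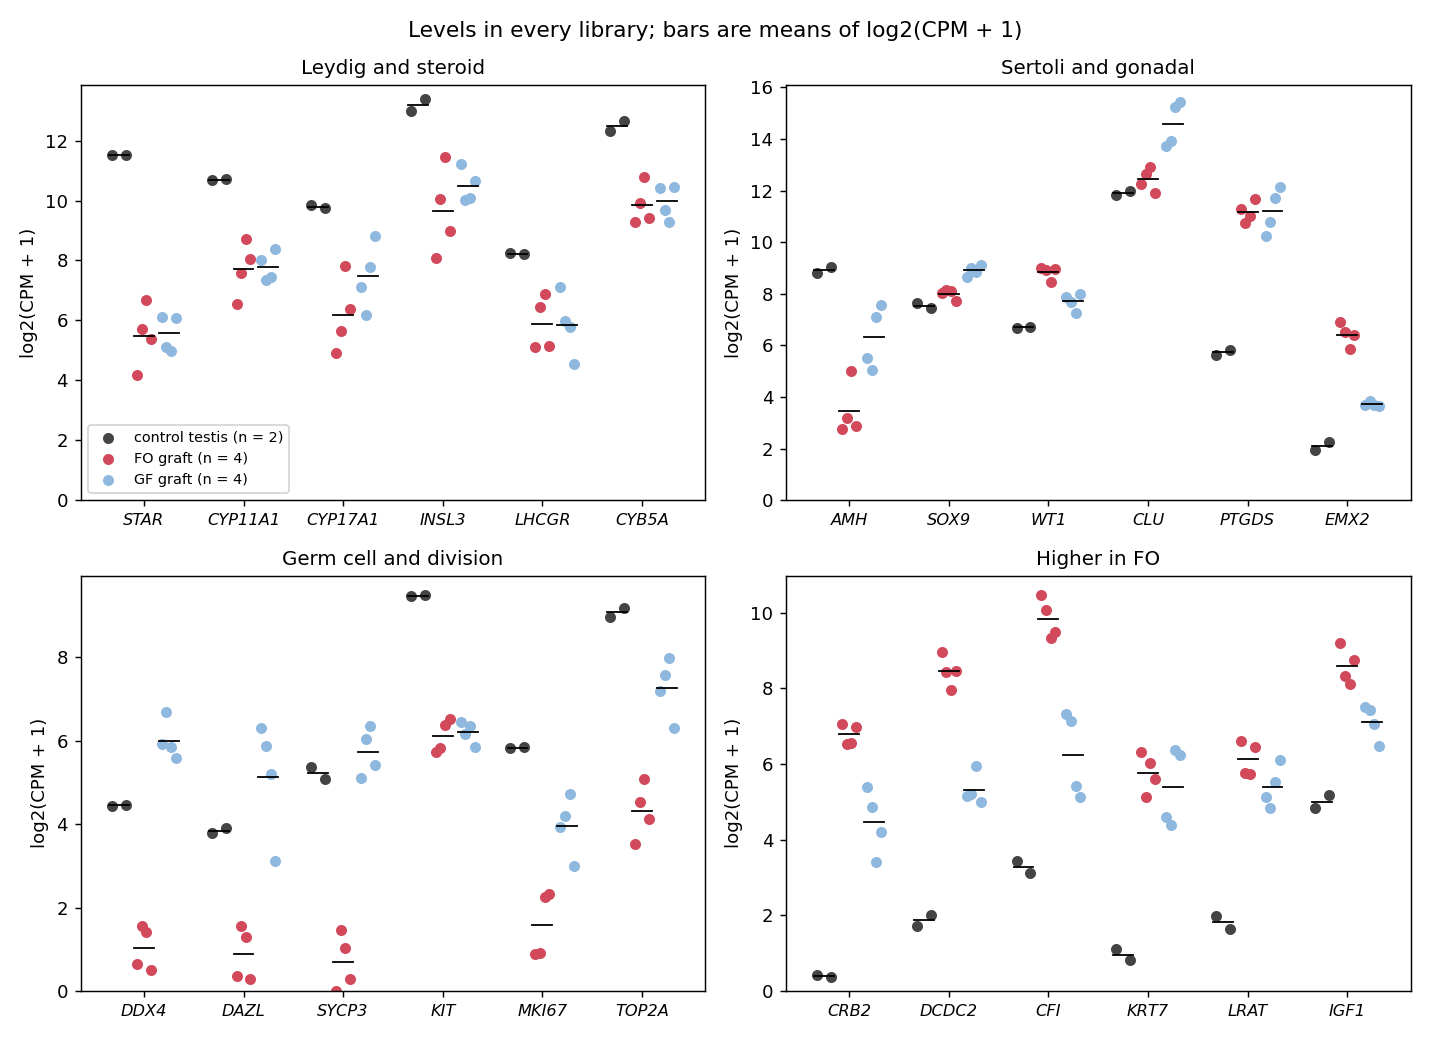
Levels as log2(CPM + 1) (y axis) in each of the 2 control, 4 FO and 4 GF libraries for genes of Leydig, Sertoli and germ cells and for genes higher in FO (x axis), 1 point per library with bars at group means. STAR reads 2904 and 2960 CPM in the controls and 17.0 to 101.1 CPM in FO, and for WT1 all FO libraries lie above the controls.

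Of called genes with a symbol, no overlap between groups and an average of 4 or more in log2 CPM, the 12 that rose most were low in control testis. CRB2, a Crumbs protein of apical membranes (chromosome 1, 264277549 to 264301731), had 2 and 2 counts in the controls and 478, 419, 442 and 593 in FO 1 to FO 4. As levels these were 0.302 to 0.330 and 91.1 to 133 CPM (log2 fold change 8.34 ± 0.74, adjusted p = 1.57e-05). DCDC2, a doublecortin-domain protein of cilia (chromosome 7, 19044229 to 19219055), was measured at 2.31 and 3.02 CPM in the controls and 499.5, 342, 246 and 352 CPM in FO 1 to FO 4 (log2 fold change 7.06 ± 0.49, adjusted p = 2.94e-06). CHL1, a cell adhesion molecule of the L1 family, read 2.97 and 1.96 CPM in the controls and 444, 274, 210.4 and 277 CPM in FO 1 to FO 4 (log2 fold change 6.92 ± 0.64, adjusted p = 2.12e-05). CFI, the protease that inactivates complement C3b (chromosome 8, 112430824 to 112470844), stood at 9.89 and 7.71 CPM in the controls and 1422, 1069.7, 648 and 714 CPM in FO 1 to FO 4 (log2 fold change 6.77 ± 0.78, adjusted p = 8.59e-05). In CHL1, CFI and DCDC2 FO 1 was the highest library, and the separation from the controls was a condition of the selection. CDH20, a cadherin, had 0 and 2 counts in the controls and 132, 130, 126 and 140 in FO 1 to FO 4, so that FO was 189-fold (95% counting interval 52.2 to 1569) higher.

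The other genes of the same selection by size were of mixed kinds. GABBR2, a subunit of the GABA-B receptor, lay at 3.13 and 0.907 CPM in the controls and 299, 162, 126 and 214 CPM in FO 1 to FO 4 (log2 fold change 6.63 ± 0.63, adjusted p = 2.45e-05). STK32A, a serine-threonine kinase, read 0.907 to 1.32 CPM in control testis and 90.0 to 135 CPM in FO (log2 fold change 6.64 ± 0.46, adjusted p = 2.94e-06). GAL3ST3, a galactose sulfotransferase, was measured at 0.302 to 1.32 CPM in control testis and 59.1 to 106 CPM in FO (log2 fold change 6.70 ± 0.77, adjusted p = 8.56e-05). EFEMP1, the matrix protein fibulin-3, and CRTAC1, a secreted matrix protein, read 0.302 to 0.824 CPM in control testis and 33.3 to 73.6 CPM in FO, and 0.907 to 1.15 CPM in control testis and 54.8 to 100.1 CPM in FO (log2 fold changes 6.40 ± 0.82 and 6.16 ± 0.53, adjusted p = 0.000181 and 1.17e-05). CLDN1, a tight junction claudin, stood at 0.907 to 0.989 CPM in control testis and 38.6 to 90.0 CPM in FO (log2 fold change 6.04 ± 0.62, adjusted p = 4.24e-05). C6H1orf168 lay at 1.51 to 3.13 CPM in control testis and 107 to 215 CPM in FO (log2 fold change 6.17 ± 0.46, adjusted p = 4.21e-06). The controls hold few counts of these genes, so that a single control library moves several of the folds. Without control 1, CDH20 was 98.9-fold (95% counting interval 27.2 to 818) higher in FO, and without control 2 at least 60.4-fold against 3 counts. Without control 1, GAL3ST3 was 279-fold (95% counting interval 77.2 to 2309) and EFEMP1 157-fold (95% counting interval 43.5 to 1302) higher in FO, and without control 2 GAL3ST3 moved to 5.98 on the log2 scale. C6H1orf168 moved to 6.76 without control 1. GABBR2 moved to 7.73 without control 1 and 5.97 without control 2. CLDN1 moved to 6.90 after thinning to the lowest total.

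Claudin and Crumbs genes are known from epithelia, and the keratin genes KRT7 and KRT19 also rose. Of the 24 genes of the epithelial and duct list, 20 were in the table and 9 passed the low-count filter, of which 3 were higher, 1 lower and 5 did not pass the test (median log2 fold change 1.52). Over all tested genes 8.12% were higher and 10.6% lower. The 5 that did not pass were KRT10, EPCAM, CLDN3, CLDN4 and UPK3B. KRT7, a simple epithelial keratin, read 1.15 and 0.755 CPM in the controls and 78.9, 33.7, 64.0 and 47.5 CPM in FO 1 to FO 4 (log2 fold change 5.84 ± 0.80, adjusted p = 0.000281). KRT19, its usual companion, was measured at 8.57 and 6.04 CPM in the controls and 157, 91.6, 86.0 and 94.3 CPM in FO 1 to FO 4 (log2 fold change 3.87 ± 0.41, adjusted p = 5.30e-05). CDH1, E-cadherin, read 2.64 and 1.21 CPM in the controls and 22.3, 10.7, 13.8 and 12.1 CPM in FO 1 to FO 4 (log2 fold change 2.92 ± 0.66, adjusted p = 0.00808). The lower member was ESRP1, an epithelial splicing regulator, with 41 and 34 counts in the controls and 1, 0, 1 and 1 in FO 1 to FO 4, or 34.8-fold (95% counting interval 11.5 to 173) higher in control testis. In all 3 keratin and cadherin genes FO 1 was the highest library and no FO library reached down to the controls. Lower epithelial and duct genes numbered 0 without control 1 or control 2. CDH1 lost its call without control 2 (2.45). CDH1 moved to 3.56 without control 1. ESRP1 lost its call without control 1 or control 2.

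FBP2, TMSB15A, ART3 and KIAA1644 were also among the 12 largest falls of symbol-bearing genes without overlap that average 4 or more in log2 CPM. FBP2, a fructose bisphosphatase best known from muscle, had 689 and 687 counts in the controls and 0, 0, 0 and 0 in FO 1 to FO 4, so that control testis was at least 639-fold higher, measured against 3 counts over the group. TMSB15A, a thymosin that binds actin, stood at 469 and 542 CPM in the controls and 3.34, 10.9, 32.5 and 6.14 CPM in FO 1 to FO 4 (log2 fold change -5.24 ± 0.65, adjusted p = 0.000152). ART3, a member of the mono-ADP-ribosyltransferase family, lay at 33.6 and 30.5 CPM in the controls and 0.279, 1.96, 1.47 and 0 CPM in FO 1 to FO 4 (log2 fold change -5.03 ± 0.67, adjusted p = 0.000242). KIAA1644 read 209 and 205 CPM in the controls and 4.74, 2.83, 11.5 and 7.42 CPM in FO 1 to FO 4 (log2 fold change -4.95 ± 0.45, adjusted p = 1.92e-05). FO 3 was the highest FO library for TMSB15A and KIAA1644, as it was for STAR, CYP17A1, INSL3, AMH and DLK1. TMSB15A moved to -6.20 without FO 3. ART3 moved to -5.66 without FO 2.

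Most fibrillar matrix genes did not pass. Of the 38 genes of the fibrillar matrix list, 36 were in the table and 36 passed the low-count filter, of which 4 were higher, 4 lower and 28 did not pass the test (median log2 fold change 0.42), shares near those of all tested genes (8.12% higher and 10.6% lower). COL14A1, a collagen that spaces fibrils, was measured at 12.7 and 15.1 CPM in the controls and 178, 125, 111 and 108 CPM in FO 1 to FO 4 (log2 fold change 3.22 ± 0.37, adjusted p = 8.64e-05). POSTN, periostin, a matricellular protein of repair tissue, read 11.4 and 12.1 CPM in the controls and 124, 228, 126 and 80.5 CPM in FO 1 to FO 4 (log2 fold change 3.57 ± 0.50, adjusted p = 0.000365). DPT, dermatopontin, went the other way at 61.2 and 71.6 CPM in the controls and 3.34, 6.53, 8.60 and 4.45 CPM in FO 1 to FO 4 (log2 fold change -3.52 ± 0.41, adjusted p = 8.64e-05). FBN2, the fibrillin of early elastic fibres, stood at 55.8 to 72.5 CPM in control testis and 12.4 to 19.8 CPM in FO (log2 fold change -1.97 ± 0.36, adjusted p = 0.00208). None of these 4 genes had overlapping groups. Summed levels of the list were 6025 to 6313 CPM in control testis and 6453 to 8637 CPM in FO.

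The fibroblast identity genes were divided as well. S100A4, a calcium-binding protein of fibroblasts, lay at 6.27 and 4.38 CPM in the controls and 41.8, 87.0, 41.9 and 71.0 CPM in FO 1 to FO 4 (log2 fold change 3.50 ± 0.49, adjusted p = 0.000342). SFRP1 and SFRP2, secreted proteins that bind Wnt ligands, read 89.9 to 94.3 CPM in control testis and 479 to 1104 CPM in FO, and 1.15 to 1.81 CPM in control testis and 10.9 to 23.7 CPM in FO (log2 fold changes 3.09 ± 0.49 and 3.31 ± 0.65, adjusted p = 0.000777 and 0.00363). CXCL12, a chemokine made by stromal cells, was measured at 391 and 363 CPM in the controls and 54.1, 39.6, 47.4 and 55.1 CPM in FO 1 to FO 4 (log2 fold change -2.94 ± 0.24, adjusted p = 8.89e-06). FAP, a surface protease of activated fibroblasts, read 51.7 to 64.5 CPM in control testis and 13.9 to 18.5 CPM in FO (log2 fold change -1.89 ± 0.32, adjusted p = 0.00119). Each FO library lay far below both controls for CXCL12. Higher fibrillar matrix genes numbered 2 without control 1, control 2, FO 1 or FO 4 and 11 without GF 3 and GF 4 and in the 6-library fit. Lower fibrillar matrix genes numbered 8 without GF 3 and GF 4 and in the 6-library fit. Higher fibroblast identity genes numbered 3 without control 1 and 2 without control 2. Lower fibroblast identity genes numbered 2 without control 2. SFRP2 lost its call without control 1 (3.01) or control 2 (3.65).

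More basement membrane genes were lower than higher. Of the 21 genes of the basement membrane list, 21 were in the table and 21 passed the low-count filter, of which 4 were higher, 10 lower and 7 did not pass the test (median log2 fold change -1.14), beside 8.12% of all tested genes that were higher and 10.6% that were lower. COL4A1, the ubiquitous collagen IV chain (chromosome 11, 76858332 to 76997409), stood at 678 and 739 CPM in the controls and 61.9, 49.4, 88.7 and 119.9 CPM in FO 1 to FO 4 (log2 fold change -3.15 ± 0.42, adjusted p = 0.000252). LAMB1, the laminin beta 1 chain, and HSPG2, perlecan, lay at 265 to 271 CPM in control testis and 49.8 to 60.8 CPM in FO, and 303 to 346 CPM in control testis and 32.4 to 68.4 CPM in FO (log2 fold changes -2.27 ± 0.24 and -2.65 ± 0.40, adjusted p = 5.30e-05 and 0.000551). COL4A4, a chain of the alternative collagen IV network, rose instead and read 10.4 and 7.25 CPM in the controls and 61.6, 89.4, 110.3 and 46.8 CPM in FO 1 to FO 4 (log2 fold change 3.13 ± 0.38, adjusted p = 0.000135). Summed levels were 3116 to 3294 CPM in control testis and 1002 to 1257 CPM in FO, and the groups did not overlap. Of the matrix proteases and their inhibitors, from the 23 genes of the protease and inhibitor list, 23 were in the table and 18 passed the low-count filter, of which 4 were higher, 3 lower and 11 did not pass the test (median log2 fold change -0.07). SERPINE2, a protease inhibitor of the pericellular matrix, was measured at 93.3 and 93.7 CPM in the controls and 8.64, 14.1, 19.5 and 6.36 CPM in FO 1 to FO 4 (log2 fold change -2.94 ± 0.42, adjusted p = 0.000409). MMP16, a membrane-bound metalloproteinase, read 64.6 to 66.3 CPM in control testis and 9.65 to 16.7 CPM in FO (log2 fold change -2.16 ± 0.40, adjusted p = 0.00233). TIMP3, a matrix-bound inhibitor of metalloproteinases, stood at 93.3 and 114 CPM in the controls and 463, 507, 345 and 304 CPM in FO 1 to FO 4 (log2 fold change 1.97 ± 0.40, adjusted p = 0.00426). ADAMTS1, a secreted protease that cuts proteoglycans, lay at 17.8 to 24.6 CPM in control testis and 74.9 to 175 CPM in FO (log2 fold change 2.41 ± 0.61, adjusted p = 0.0144).

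Contractile genes of peritubular and smooth muscle cells were divided. Of the 21 genes of the peritubular and smooth muscle list, 21 were in the table and 20 passed the low-count filter, of which 6 were higher, 1 lower and 13 did not pass the test (median log2 fold change 0.21). ACTA2, smooth muscle actin, read 179 and 235 CPM in the controls and 96.7, 87.2, 105 and 111 CPM in FO 1 to FO 4 and fell (log2 fold change -1.05 ± 0.24, adjusted p = 0.00825). MYH11, smooth muscle myosin, was measured at 20.6 and 18.7 CPM in the controls and 18.4, 20.7, 39.9 and 40.0 CPM in FO 1 to FO 4. Its groups overlapped and it did not pass (log2 fold change 0.60 ± 0.45, adjusted p = 0.399). MYLK and TPM2, myosin light chain kinase and a tropomyosin, read 265 to 308 CPM in control testis and 518 to 613 CPM in FO, and 83.1 to 90.1 CPM in control testis and 206 to 271 CPM in FO (log2 fold changes 0.96 ± 0.24 and 1.53 ± 0.32, adjusted p = 0.0147 and 0.0049). KCNMB1, a potassium channel subunit of smooth muscle, had 2 and 1 counts in the controls and 57, 56, 55 and 41 in FO 1 to FO 4 and was 50-fold (95% counting interval 16.9 to 244) higher in FO. Without control 1 this ratio was 78.3-fold (95% counting interval 13.9 to 3106). Higher basement membrane genes numbered 2 without control 1 or control 2. Lower basement membrane genes numbered 5 without control 2. Higher protease and inhibitor genes numbered 0 without control 1 or control 2 and 7 without GF 3 and GF 4 and in the 6-library fit. Lower protease and inhibitor genes numbered 5 in the 6-library fit. Higher peritubular and smooth muscle genes numbered 1 without control 1 or control 2 and 3 without FO 1, FO 2 or FO 3. Lower peritubular and smooth muscle genes numbered 0 without control 2 and 5 without GF 3 and GF 4 and in the 6-library fit. TIMP3 lost its call without control 1 (1.82) or control 2 (2.10). ADAMTS1 lost its call without control 1 (2.19) or control 2 (2.65). ACTA2 lost its call without control 2 (-0.85) and against a fold of 1.5. MYLK lost its call without control 1 (0.84) or control 2 (1.05) and against a fold of 1.5. TPM2 lost its call without control 1 (1.47) or control 2 (1.58).

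Retinoid genes that passed were all higher. Retinoic acid, made from vitamin A, is a signal for the entry of germ cells into differentiation. Of the 20 genes of the retinoid list, 18 were in the table and 14 passed the low-count filter, of which 7 were higher, 0 lower and 7 did not pass the test (median log2 fold change 1.496). LRAT, which esterifies retinol for storage (chromosome 8, 74412226 to 74428713), stood at 2.97 and 2.12 CPM in the controls and 96.4, 52.9, 52.2 and 86.5 CPM in FO 1 to FO 4 (log2 fold change 4.81 ± 0.52, adjusted p = 5.43e-05). RDH10, which oxidises retinol to retinal, lay at 6.80 to 8.08 CPM in control testis and 40.5 to 74.2 CPM in FO (log2 fold change 2.97 ± 0.37, adjusted p = 0.000152). ALDH1A1 and ALDH1A2, which make retinoic acid from retinal, read 15.99 and 19.8 CPM in the controls and 190.1, 196, 185 and 98.1 CPM in FO 1 to FO 4, and 12.4 to 15.2 CPM in control testis and 80.8 to 147 CPM in FO. Their log2 fold changes were 3.22 ± 0.35 and 3.08 ± 0.39 (adjusted p = 6.05e-05 and 0.00016). In LRAT, RDH10 and both dehydrogenases, no FO library overlapped the controls. Lower retinoid genes numbered 1 without GF 3 and GF 4 and in the 6-library fit.

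Ligands and receptors of the testicular niche that passed were higher, with 1 exception. Of the 21 genes of the niche ligand and receptor list, 21 were in the table and 19 passed the low-count filter, of which 6 were higher, 1 lower and 12 did not pass the test (median log2 fold change 0.99). IGF1, insulin-like growth factor 1 (chromosome 5, 81762027 to 81909253), was measured at 27.4 and 35.5 CPM in the controls and 585, 321, 274 and 432 CPM in FO 1 to FO 4 (log2 fold change 3.68 ± 0.42, adjusted p = 8.33e-05). BMP4, a bone morphogenetic protein, and BMPR1B, a receptor for this family, read 24.7 to 25.1 CPM in control testis and 126 to 213 CPM in FO, and 12.2 to 13.9 CPM in control testis and 68.6 to 128 CPM in FO (log2 fold changes 2.75 ± 0.45 and 2.85 ± 0.37, adjusted p = 0.00096 and 0.0002). FGFR3, a fibroblast growth factor receptor that marks spermatogonia among other cells, was the lower one at 29.5 and 34.6 CPM in the controls and 1.39, 0.653, 0.419 and 0.212 CPM in FO 1 to FO 4 (log2 fold change -5.59 ± 0.96, adjusted p = 0.00146). GDNF, the ligand that maintains spermatogonia, was not tested, with 27 counts over the controls and 16 over FO.

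In the growth factor axis of imprinted and IGF-binding genes the picture was mixed. Of the 20 genes of the imprinted and fetal growth list, 19 were in the table and 16 passed the low-count filter, of which 3 were higher, 3 lower and 10 did not pass the test (median log2 fold change 0.44). IGF2, the fetal growth factor, stood at 216 and 267 CPM in the controls and 498, 501, 461 and 667 CPM in FO 1 to FO 4 (log2 fold change 1.14 ± 0.29, adjusted p = 0.0149). DLK1, a Notch-like ligand of fetal Leydig precursors, lay at 26.5 and 36.1 CPM in the controls and 0, 1.74, 5.45 and 0.212 CPM in FO 1 to FO 4 (log2 fold change -4.03 ± 1.01, adjusted p = 0.0141). NNAT, neuronatin, read 13.5 to 15.9 CPM in control testis and 96.4 to 143 CPM in FO (log2 fold change 3.10 ± 0.54, adjusted p = 0.00156). Of the 10 genes of the IGF binding list, 10 were in the table and 6 passed the low-count filter, of which 1 was higher, 0 lower and 5 did not pass the test (median log2 fold change 0.45). That member was IGFBP6, which prefers IGF2, at 8.57 and 10.9 CPM in the controls and 178, 58.1, 95.9 and 216 CPM in FO 1 to FO 4 (log2 fold change 3.81 ± 0.55, adjusted p = 0.000423). IGFBP5 lay at 64.0 to 66.0 CPM in control testis and 79.4 to 119 CPM in FO, IGFBP2 at 27.2 to 39.3 CPM in control testis and 12.2 to 24.8 CPM in FO, and neither passed (adjusted p = 0.208 and 0.146). Higher niche genes numbered 3 without control 1 or control 2 and 10 in the 6-library fit. Lower niche genes numbered 2 without GF 3 and GF 4. Higher imprinted genes numbered 1 without control 1 or control 2 and 6 without GF 3 and GF 4 and in the 6-library fit. Lower imprinted genes numbered 0 without control 1 or control 2, 1 without FO 1, FO 2 or FO 3 and 5 without GF 3 and GF 4 and in the 6-library fit. Higher IGF binding genes numbered 2 without GF 3 and GF 4 and in the 6-library fit. Lower IGF binding genes numbered 2 without GF 3 and GF 4 and 1 in the 6-library fit. IGF2 lost its call without control 1 (0.98) or control 2 (1.29) and against a fold of 1.5. DLK1 lost its call without control 1 (-4.25) or control 2 (-3.81). DLK1 moved to -5.47 without FO 3. IGFBP5 passed the test without GF 3 and GF 4 (0.65) and in the 6-library fit (0.65). IGFBP2 passed the test without GF 3 and GF 4 (-0.78) and in the 6-library fit (-0.77).

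Genes of Wnt and TGF-beta signalling that passed were higher, with 1 exception. Of the 29 genes of the Wnt pathway list, 29 were in the table and 23 passed the low-count filter, of which 7 were higher, 0 lower and 16 did not pass the test (median log2 fold change 1.00). RSPO3, a ligand that strengthens Wnt signalling, read 1.81 and 3.17 CPM in the controls and 55.2, 28.7, 38.0 and 62.1 CPM in FO 1 to FO 4 (log2 fold change 4.18 ± 0.70, adjusted p = 0.00121). AXIN2, a target and inhibitor of the pathway, stood at 7.09 and 9.37 CPM in the controls and 46.5, 43.7, 32.3 and 34.5 CPM in FO 1 to FO 4 (log2 fold change 2.25 ± 0.39, adjusted p = 0.00143). With SFRP1 and SFRP2 above, both an activating ligand and binding inhibitors were higher. Of the 27 genes of the TGF-beta and BMP pathway list, 27 were in the table and 22 passed the low-count filter, of which 6 were higher, 1 lower and 15 did not pass the test (median log2 fold change 0.55). TGFB2, a TGF-beta ligand, lay at 27.9 and 26.3 CPM in the controls and 373, 229.9, 228 and 232 CPM in FO 1 to FO 4 (log2 fold change 3.29 ± 0.32, adjusted p = 2.80e-05). CHRDL1, a secreted inhibitor of BMP ligands, and LTBP2, a latent TGF-beta binding protein, read 1.06 to 1.98 CPM in control testis and 30.5 to 49.2 CPM in FO, and 24.0 to 24.2 CPM in control testis and 79.3 to 142 CPM in FO (log2 fold changes 4.61 ± 0.50 and 2.27 ± 0.43, adjusted p = 6.05e-05 and 0.00285).

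Hedgehog genes, which link Sertoli to Leydig cells, went both ways. Of the 14 genes of the hedgehog pathway list, 14 were in the table and 12 passed the low-count filter, of which 3 were higher, 2 lower and 7 did not pass the test (median log2 fold change -0.04). CDON, a co-receptor for the ligand, was measured at 16.7 to 18.4 CPM in control testis and 53.8 to 87.2 CPM in FO (log2 fold change 1.91 ± 0.45, adjusted p = 0.0105). Higher Wnt genes numbered 3 without control 1 or control 2 and 13 without GF 3 and GF 4 and in the 6-library fit. Lower Wnt genes numbered 1 without FO 3, FO 4 or GF 3 and GF 4 and in the 6-library fit. Higher TGF-beta and BMP genes numbered 3 without control 1 or control 2 and 10 without GF 3 and GF 4 and in the 6-library fit. Lower TGF-beta and BMP genes numbered 0 without control 1, control 2, FO 1, FO 2 or FO 4 and 3 without GF 3 and GF 4 and in the 6-library fit. Higher hedgehog genes numbered 0 without control 1 or control 2 and 1 without FO 1, FO 2 or FO 4. Lower hedgehog genes numbered 0 without control 1 or control 2, 1 without FO 1, FO 2, FO 3 or FO 4 and 4 without GF 3 and GF 4 and in the 6-library fit. LTBP2 lost its call without control 1 (2.27) or control 2 (2.25). CDON lost its call without control 1 (1.82) or control 2 (1.97).

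**Figure D3:**
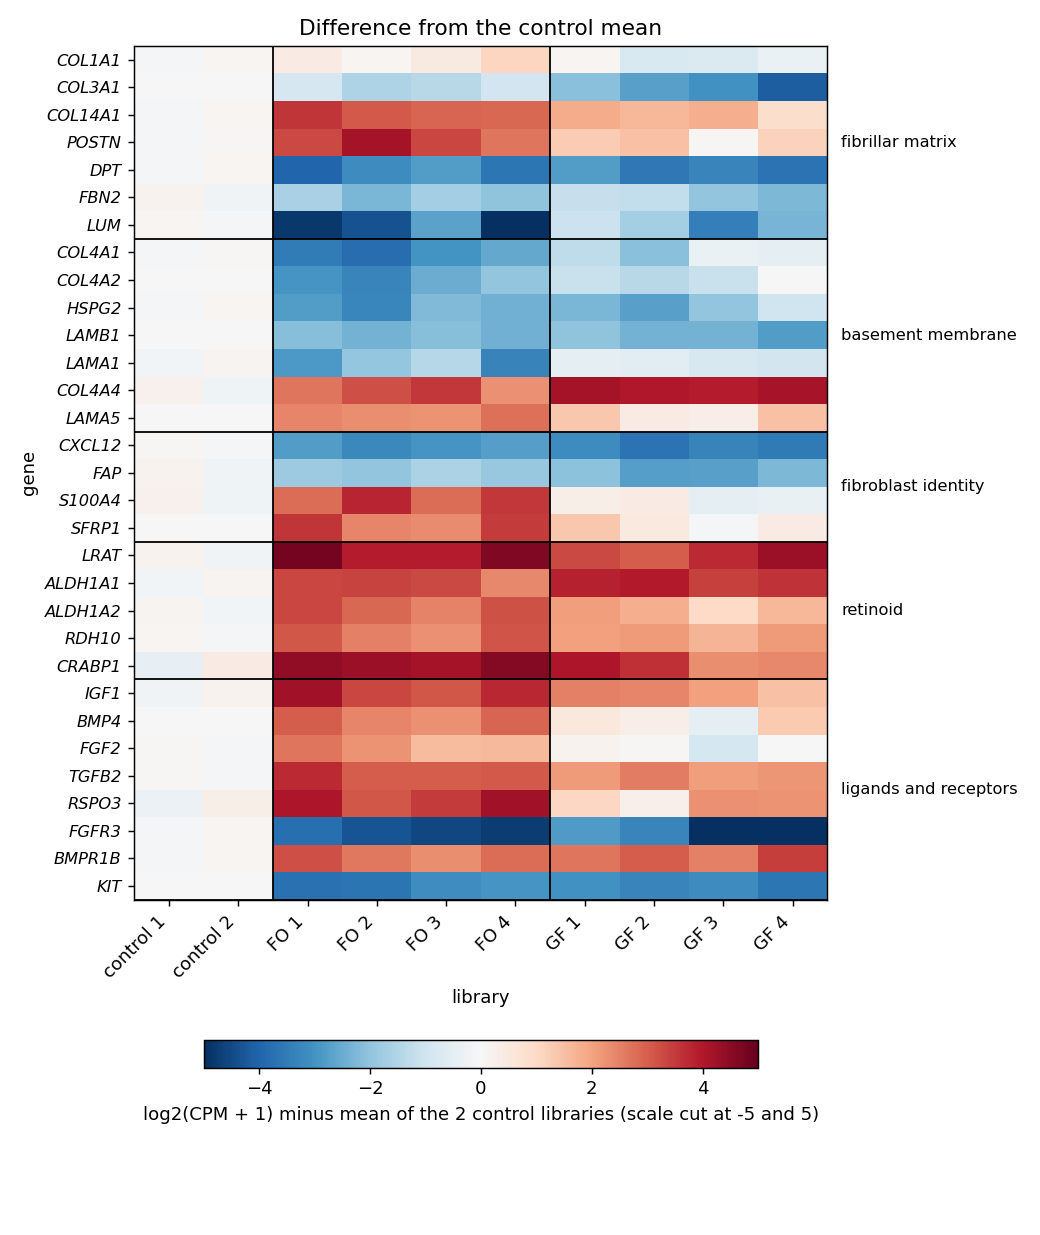
Difference of log2(CPM + 1) from the mean of the 2 control libraries, by colour, for genes of matrix, retinoid and signalling lists (rows) in each control, FO and GF library (columns), with values past -5 or 5 drawn at those limits. LRAT and IGF1 are above the controls in all 4 FO libraries, and COL4A1 and FGFR3 below them.

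Most tested globin and erythroid genes were lower in FO, and most endothelial genes did not pass. Of the 18 genes of the globin and erythroid list, 12 were in the table and 7 passed the low-count filter, of which 1 was higher, 5 lower and 1 did not pass the test (median log2 fold change -4.82), and 3 listed genes had no count in FO. HBB, beta globin, stood at 3035 and 3904 CPM in the controls and 7.53, 1.74, 2.73 and 19.9 CPM in FO 1 to FO 4 (log2 fold change -8.76 ± 0.71, adjusted p = 8.89e-06). HBM, another globin gene, had 281 and 424 counts in the controls and 0, 0, 0 and 0 in FO 1 to FO 4, so that control testis was at least 327-fold higher. AHSP, the chaperone of alpha globin, lay at 26.1 to 35.8 CPM in control testis and 1.39 to 3.26 CPM in FO (log2 fold change -3.55 ± 0.47, adjusted p = 0.000226). HBE1, an embryonic globin, went up instead, with 1 and 2 counts in the controls and 97, 27, 32 and 275 in FO 1 to FO 4, and FO was 103-fold (95% counting interval 35.0 to 502) higher. Without FO 4 that ratio was 50.9-fold (95% counting interval 17.1 to 249.6). Globin genes share sequence, and their counts may be divided between copies. Of the 27 genes of the endothelial cell list, 27 were in the table and 26 passed the low-count filter, of which 1 was higher, 4 lower and 21 did not pass the test (median log2 fold change -1.10), beside 10.6% of all tested genes that were lower. PECAM1 read 93.3 and 94.6 CPM in the controls and 15.6, 11.96, 18.7 and 47.3 CPM in FO 1 to FO 4 (log2 fold change -2.003 ± 0.51, adjusted p = 0.0144). VWF, the clotting factor of endothelium, was measured at 70.7 and 79.0 CPM in the controls and 5.57, 2.61, 11.3 and 23.9 CPM in FO 1 to FO 4 (log2 fold change -2.77 ± 0.68, adjusted p = 0.0121). MMRN1, a multimerin of platelets and lymphatic endothelium, read 21.9 to 22.5 CPM in control testis and 0.836 to 1.89 CPM in FO (log2 fold change -3.97 ± 0.89, adjusted p = 0.00771). EMCN, endomucin, was the higher one and stood at 12.5 and 14.5 CPM in the controls and 78.0, 79.6, 50.5 and 60.4 CPM in FO 1 to FO 4 (log2 fold change 2.31 ± 0.57, adjusted p = 0.0124). FO 4 was the highest FO library for HBB, HBE1, PECAM1 and VWF, and its summed endothelial level of 783 CPM stood close below the controls at 855 and 878 CPM, where the other FO libraries lay at 319 to 371 CPM. Higher globin and erythroid genes numbered 0 without control 1 or control 2 and in the 6-library fit. Lower globin and erythroid genes numbered 3 without control 1 or control 2. Higher endothelial genes numbered 0 without control 1 or control 2 and 2 without GF 3 and GF 4 and in the 6-library fit. Lower endothelial genes numbered 0 without control 1 or control 2 and 8 without FO 4. HBB moved to -9.80 without FO 4. HBE1 lost its call without control 1 or control 2 and in the 6-library fit. PECAM1 lost its call without control 1 (-2.02) or control 2 (-2.01). PECAM1 moved to -2.60 without FO 4. VWF lost its call without control 1 (-2.87) or control 2 (-2.71). VWF moved to -3.51 without FO 4. MMRN1 lost its call without control 1 (-4.004) or control 2 (-3.97). EMCN lost its call without control 1 (2.20) or control 2 (2.41).

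Macrophage genes were lower where they passed. Of the 24 genes of the macrophage and myeloid list, 24 were in the table and 23 passed the low-count filter, of which 0 were higher, 11 lower and 12 did not pass the test (median log2 fold change -2.003). LAPTM5, a lysosomal protein of blood cells, lay at 95.6 and 100.5 CPM in the controls and 15.9, 4.79, 9.44 and 22.0 CPM in FO 1 to FO 4 (log2 fold change -2.91 ± 0.49, adjusted p = 0.00118). CTSS, the protease of antigen processing, read 264 and 238 CPM in the controls and 98.7, 36.3, 33.3 and 109 CPM in FO 1 to FO 4 (log2 fold change -1.86 ± 0.43, adjusted p = 0.00981). LYZ, lysozyme, was measured at 15.3 to 22.1 CPM in control testis and 0.218 to 1.67 CPM in FO (log2 fold change -4.21 ± 0.82, adjusted p = 0.0034). CD68, the usual macrophage marker, read 18.1 and 27.8 CPM in the controls and 4.46, 1.96, 2.10 and 8.26 CPM in FO 1 to FO 4 and passed narrowly (log2 fold change -2.45 ± 0.80, adjusted p = 0.0482). Of the 23 genes of the lymphocyte, mast cell and neutrophil list, 23 were in the table and 9 passed the low-count filter, of which 0 were higher, 3 lower and 6 did not pass the test (median log2 fold change -0.80). MS4A2, a chain of the mast cell IgE receptor, had 73 and 106 counts in the controls and 1, 1, 3 and 1 in FO 1 to FO 4 (log2 fold change -5.27 ± 0.80, adjusted p = 0.00141). JCHAIN, of plasma cells, stood at 4.84 to 4.95 CPM in control testis and 9.11 to 11.4 CPM in FO and did not pass (log2 fold change 1.08 ± 0.57, adjusted p = 0.211). Summed macrophage levels were 919 and 977 CPM in the controls and 432, 239, 223 and 483 CPM in FO 1 to FO 4, with FO 1 and FO 4 above FO 2 and FO 3. Higher macrophage genes numbered 1 in the 6-library fit. Lower macrophage genes numbered 2 without control 1, 1 without control 2, 6 without FO 1 or FO 2 and 5 without FO 3. Higher lymphocyte, mast cell and neutrophil genes numbered 1 without GF 3 and GF 4 and in the 6-library fit. Lower lymphocyte, mast cell and neutrophil genes numbered 1 without control 2. CTSS lost its call without control 1 (-1.79) or control 2 (-1.95). LYZ lost its call without control 2 (-3.93). CD68 lost its call without control 1 (-2.73), control 2 (-2.12), FO 1 (-2.47), FO 2 (-2.21) or FO 3 (-2.22), with RLE size factors (-2.41), with total counts as scaling (-2.48), after thinning to the lowest total (-2.20) and against a fold of 1.5. JCHAIN passed the test without GF 3 and GF 4 (1.11) and in the 6-library fit (1.11).

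Interferon-stimulated genes that passed were lower, with 1 exception. Of the 21 genes of the interferon-stimulated list, 20 were in the table and 20 passed the low-count filter, of which 1 was higher, 11 lower and 8 did not pass the test (median log2 fold change -1.74). MX1, an antiviral GTPase, lay at 304 and 323 CPM in the controls and 32.3, 34.4, 30.2 and 40.5 CPM in FO 1 to FO 4 (log2 fold change -3.19 ± 0.37, adjusted p = 8.82e-05). ISG15, a ubiquitin-like modifier, and USP18, the protease that removes it, read 66.0 to 80.5 CPM in control testis and 9.76 to 16.6 CPM in FO, and 33.3 to 36.6 CPM in control testis and 4.40 to 6.41 CPM in FO (log2 fold changes -2.54 ± 0.43 and -2.67 ± 0.39, adjusted p = 0.00125 and 0.000484). DDX58, the RNA sensor RIG-I, was measured at 94.6 CPM in control testis and 13.1 to 28.5 CPM in FO (log2 fold change -2.25 ± 0.32, adjusted p = 0.000413). Of the 22 genes of the MHC and antigen presentation list, 22 were in the table and 21 passed the low-count filter, of which 1 was higher, 5 lower and 15 did not pass the test (median log2 fold change -1.17). SLA-DRA and SLA-DQA1, class II chains of antigen-presenting cells, read 114 and 120.1 CPM in the controls and 21.2, 6.96, 12.2 and 41.3 CPM in FO 1 to FO 4, and 107 to 121 CPM in control testis and 21.6 to 44.5 CPM in FO (log2 fold changes -2.52 ± 0.53 and -1.81 ± 0.51, adjusted p = 0.00518 and 0.0252). B2M, the light chain of class I, stood at 160.1 to 203 CPM in control testis and 62.1 to 82.0 CPM in FO (log2 fold change -1.30 ± 0.30, adjusted p = 0.00961). SLA-1, a class I heavy chain with near-identical relatives between which reads may be divided, lay at 24.4 and 24.3 CPM in the controls and 141, 92.2, 103 and 167.6 CPM in FO 1 to FO 4 (log2 fold change 2.37 ± 0.36, adjusted p = 0.000558). Class II genes followed FO 4 and FO 1, the libraries with the higher macrophage sums, and the part of macrophages in them was not tested.

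Complement and chemokine genes that passed went both ways, and most did not pass. Over all tested genes 8.12% were higher and 10.6% lower. Of the 24 genes of the complement list, 24 were in the table and 21 passed the low-count filter, of which 4 were higher, 1 lower and 16 did not pass the test (median log2 fold change 0.18). C3, the central component, read 186 and 226 CPM in the controls and 273, 269, 201 and 256 CPM in FO 1 to FO 4 and did not pass (log2 fold change 0.28 ± 0.31, adjusted p = 0.6). Its regulators were the higher ones, with CFI above, SERPING1, the C1 inhibitor, at 241 to 284 CPM in control testis and 403 to 643 CPM in FO (log2 fold change 1.01 ± 0.27, adjusted p = 0.018) and CD55, which speeds the decay of convertases, at 21.9 to 29.5 CPM in control testis and 60.2 to 126 CPM in FO (log2 fold change 1.97 ± 0.41, adjusted p = 0.00519). C4A fell, at 412 to 449.7 CPM in control testis and 98.1 to 219 CPM in FO (log2 fold change -1.46 ± 0.32, adjusted p = 0.00653). Of the 23 genes of the chemokine and cytokine list, 23 were in the table and 15 passed the low-count filter, of which 2 were higher, 3 lower and 10 did not pass the test (median log2 fold change 1.09). CXCL16, a membrane-bound chemokine, was measured at 12.5 to 19.5 CPM in control testis and 88.5 to 116 CPM in FO (log2 fold change 2.70 ± 0.44, adjusted p = 0.000948). CXCL10, an interferon-induced chemokine, read 42.0 to 47.3 CPM in control testis and 5.09 to 12.8 CPM in FO (log2 fold change -2.20 ± 0.50, adjusted p = 0.00826). Higher interferon-stimulated genes numbered 0 without control 1, control 2 or FO 1. Lower interferon-stimulated genes numbered 6 without control 1 or control 2 and 17 in the 6-library fit. Higher MHC genes numbered 2 without GF 3 and GF 4 and in the 6-library fit. Lower MHC genes numbered 2 without control 1, FO 1, FO 2 or FO 3, 0 without control 2 and 12 without GF 3 and GF 4 and in the 6-library fit. Higher complement genes numbered 2 without control 1 and 1 without control 2. Lower complement genes numbered 0 without control 2 and 2 without GF 3 and GF 4. Higher chemokine genes numbered 1 without control 1, control 2, FO 1, FO 2 or FO 4, 6 without GF 3 and GF 4 and 7 in the 6-library fit. Lower chemokine genes numbered 0 without control 1 or control 2 and 1 without FO 1 or FO 4. SLA-DRA lost its call without control 2 (-2.50). SLA-DRA moved to -3.13 without FO 4. SLA-DQA1 lost its call without control 1 (-1.90), control 2 (-1.73), FO 1 (-1.92), FO 2 (-1.68) or FO 3 (-1.65) and against a fold of 1.5. B2M lost its call without control 2 (-1.13). SERPING1 lost its call without control 1 (0.89) or control 2 (1.12) and against a fold of 1.5. CD55 lost its call without control 2 (1.76). C4A lost its call without control 2 (-1.41). CXCL10 lost its call without control 1 (-2.30) or control 2 (-2.13).

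**Figure D4:**
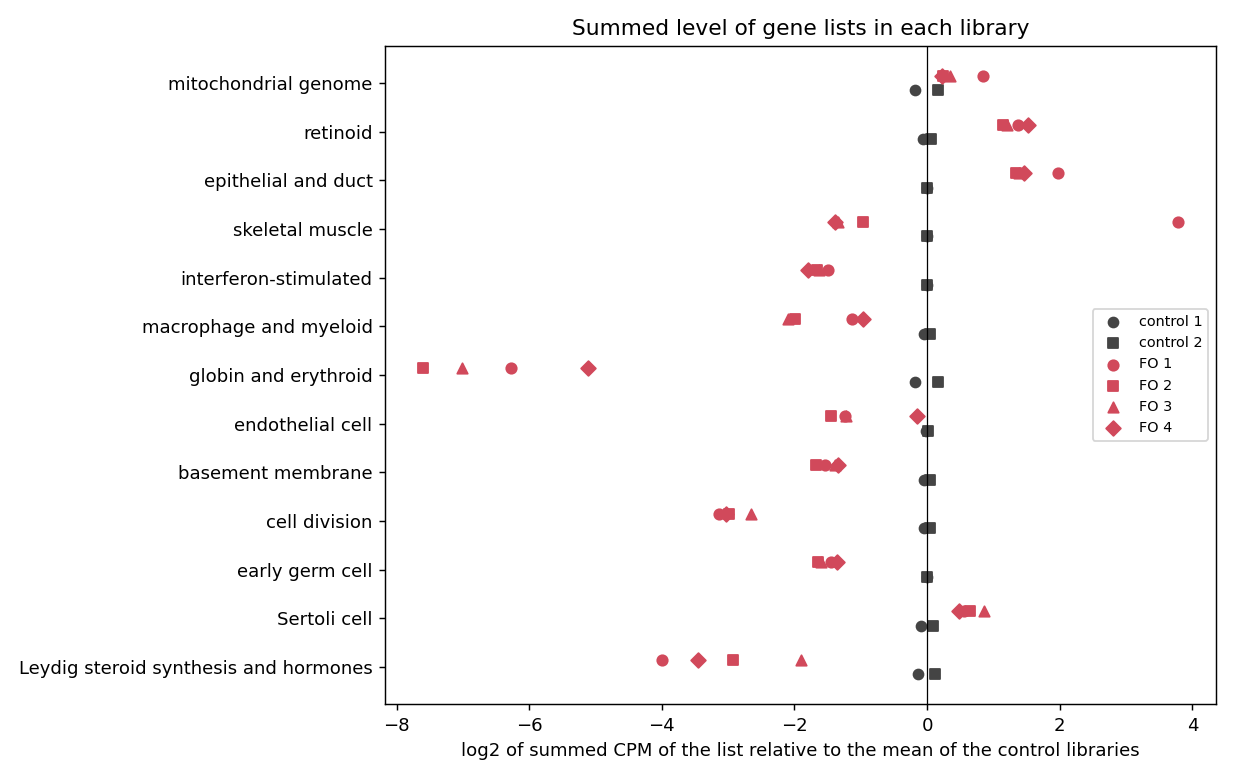
Log2 of the summed CPM of gene lists relative to the mean of the 2 controls (x axis) for 13 lists (rows), 1 point per control or FO library. The Leydig sum is 21225 and 25511 CPM in the controls against 1465 to 6249 CPM in FO, and FO 1 stands alone in the skeletal muscle list at 1123 CPM.

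Genes encoded by the mitochondrion that passed were higher, and nuclear genes of the same respiratory chain that passed were lower. Most tested genes of both lists did not pass. Of the 13 genes of the mitochondrial genome list, 13 were in the table and 13 passed the low-count filter, of which 5 were higher, 0 lower and 8 did not pass the test (median log2 fold change 0.80). COX1, a core subunit of cytochrome oxidase, stood at 1486 and 1865 CPM in the controls and 14053, 8039, 9576 and 5978 CPM in FO 1 to FO 4 (log2 fold change 2.49 ± 0.39, adjusted p = 0.00075). ND1 and ND6, complex I subunits, lay at 1377 to 1407 CPM in control testis and 2817 to 3788 CPM in FO, and 13.1 to 13.5 CPM in control testis and 53.8 to 82.2 CPM in FO (log2 fold changes 1.16 ± 0.27 and 2.31 ± 0.38, adjusted p = 0.00877 and 0.00105). ND2 read 2551 and 4961 CPM in the controls and 8622, 5946, 6567 and 7509 CPM in FO 1 to FO 4 and passed narrowly (log2 fold change 0.93 ± 0.30, adjusted p = 0.0462). ATP8, which overlaps ATP6 on the mitochondrial genome so that reads of the pair are uncertain, was measured at 3.96 to 8.16 CPM in control testis and 79.2 to 139 CPM in FO (log2 fold change 4.12 ± 0.41, adjusted p = 3.51e-05). The most abundant members, ND4 at 19917 to 27942 CPM in FO, COX3 at 9768 to 18035 CPM and ATP6 at 10056 to 21845 CPM, did not pass (adjusted p = 0.165, 0.999 and 0.366). ATP6 read 19440 and 22250 CPM in the controls. Its log2 fold change of -0.51 ± 0.36 was opposite in sign to those of the members that passed. COX3 had a log2 fold change of 0.01 ± 0.27, which turned to -0.06 with total counts as scaling and -0.02 with no low-count filter. The 13 genes summed to 63478 and 80712 CPM in the controls and 129998, 84778, 91277 and 84254 CPM in FO 1 to FO 4, highest in FO 1. ND4 passed the test without GF 3 and GF 4 (0.83) and in the 6-library fit (0.83).

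Of the 51 genes of the nuclear respiratory chain list, 51 were in the table and 51 passed the low-count filter, of which 0 were higher, 15 lower and 36 did not pass the test (median log2 fold change -0.58). The share lower was 29.4%. Over all tested genes 8.12% were higher and 10.6% lower. NDUFB11, NDUFS8 and NDUFV1, nuclear subunits of complex I, read 264 to 326 CPM in control testis and 60.0 to 76.1 CPM in FO, 220.4 to 252 CPM in control testis and 48.8 to 62.9 CPM in FO, and 96.3 to 112 CPM in control testis and 19.9 to 32.7 CPM in FO. Their log2 fold changes were -2.14 ± 0.23, -2.10 ± 0.37 and -1.96 ± 0.28 (adjusted p = 6.03e-05, 0.00163 and 0.000372). COX5B, a nuclear subunit of cytochrome oxidase, stood at 566 to 692 CPM in control testis and 258 to 311 CPM in FO (log2 fold change -1.17 ± 0.21, adjusted p = 0.00172). Of the 28 genes of the glycolysis and hypoxia list, 28 were in the table and 26 passed the low-count filter, of which 4 were higher, 5 lower and 17 did not pass the test (median log2 fold change -0.36). GPI and TPI1, glycolytic enzymes, lay at 258 to 277 CPM in control testis and 62.7 to 104 CPM in FO, and 91.0 to 109.5 CPM in control testis and 38.7 to 43.6 CPM in FO (log2 fold changes -1.76 ± 0.30 and -1.29 ± 0.23, adjusted p = 0.0013 and 0.00177). BNIP3, a mitophagy receptor induced by low oxygen, read 158 to 199 CPM in control testis and 41.1 to 58.3 CPM in FO (log2 fold change -1.86 ± 0.26, adjusted p = 0.000338). ALDOC, the aldolase of brain, rose and was measured at 5.44 to 6.10 CPM in control testis and 43.1 to 75.9 CPM in FO (log2 fold change 3.27 ± 0.38, adjusted p = 9.16e-05).

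Cytosolic ribosomal protein genes were higher where they passed, with 1 exception. Of the 82 genes of the ribosomal protein list, 82 were in the table and 80 passed the low-count filter, of which 17 were higher, 1 lower and 62 did not pass the test (median log2 fold change 0.48). RPL34 read 1504 and 1860.3 CPM in the controls and 7078, 4783, 4626 and 5028 CPM in FO 1 to FO 4 (log2 fold change 1.68 ± 0.27, adjusted p = 0.000906). RPL7, RPS3A, RPS27A and RPS12 had log2 fold changes of 1.497 ± 0.27, 1.43 ± 0.27, 1.89 ± 0.39 and 1.01 ± 0.23 (adjusted p = 0.00198, 0.00249, 0.00489 and 0.00876). RPL10L, a retrogene copy of RPL10 whose reads may come from its parent, stood at 0.755 to 0.824 CPM in control testis and 10.7 to 20.6 CPM in FO (log2 fold change 4.13 ± 0.57, adjusted p = 0.000323). Ribosomal protein transcripts took 10.1% and 11.6% of counts in the controls and 14.8% to 16.1% in FO. Higher mitochondrial genes numbered 3 without control 1. Higher nuclear respiratory genes numbered 1 without GF 3 and GF 4 and in the 6-library fit. Lower nuclear respiratory genes numbered 9 without control 1, 3 without control 2, 27 without GF 3 and GF 4 and 26 in the 6-library fit. Higher glycolysis and hypoxia genes numbered 2 without control 1 or control 2. Lower glycolysis and hypoxia genes numbered 3 without control 1, 2 without control 2 and 11 without GF 3 and GF 4 and in the 6-library fit. Higher ribosomal protein genes numbered 2 without control 1, 5 without control 2 and 42 without GF 3 and GF 4 and in the 6-library fit. Lower ribosomal protein genes numbered 0 without control 1, control 2, FO 1, FO 2, FO 3 or FO 4 and 2 without GF 3 and GF 4 and in the 6-library fit. ND1 lost its call without control 1 (1.13) or control 2 (1.16) and against a fold of 1.5. ND2 lost its call without control 1 (0.52), FO 1 (0.83), FO 2 (1.01), FO 3 (0.97) or FO 4 (0.91), with no robust estimation (0.93) and against a fold of 1.5. ATP8 moved to 4.72 without control 2. COX5B lost its call without control 2 (-1.03). TPI1 lost its call without control 2 (-1.16). RPL7 lost its call without control 1 (1.34). RPS3A lost its call without control 1 (1.32). RPS27A lost its call without control 1 (1.70) or control 2 (2.07). RPS12 lost its call without control 1 (0.80) and against a fold of 1.5.

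Markers of tissues that a graft site in skin could hold were also read. Of the 29 genes of the skeletal muscle list, 26 were in the table and 20 passed the low-count filter, of which 0 were higher, 0 lower and 20 did not pass the test (median log2 fold change 3.13). Their summed level was 81.4 and 82.0 CPM in the controls and 1123, 41.8, 32.3 and 31.1 CPM in FO 1 to FO 4. ACTA1, skeletal actin, read 0.495 and 0.604 CPM in the controls and 228, 2.39, 1.47 and 3.81 CPM in FO 1 to FO 4 and did not pass (log2 fold change 6.66 ± 3.14, adjusted p = 0.173). TNNC2 and TNNT3, fast troponins, had 0 and 9 counts in the controls and 190, 17, 6 and 9 in FO 1 to FO 4, and 0 and 0 counts in the controls and 128, 0, 1 and 0 in FO 1 to FO 4. FO 1 alone was high in ACTA1, TNNC2 and TNNT3, and the other FO libraries lay below the controls in sum. Of the 20 genes of the adipocyte list, 20 were in the table and 15 passed the low-count filter, of which 1 was higher, 1 lower and 13 did not pass the test (median log2 fold change -0.42). Over all tested genes 8.12% were higher and 10.6% lower. FABP4, a fatty acid carrier of adipocytes, was measured at 1.98 and 2.72 CPM in the controls and 17.8, 13.9, 12.4 and 48.7 CPM in FO 1 to FO 4 and did not pass (log2 fold change 3.29 ± 1.18, adjusted p = 0.0679). FO 4 was the highest FO library for FABP4. FASN, fatty acid synthase, read 273 to 282 CPM in control testis and 90.3 to 163 CPM in FO (log2 fold change -1.21 ± 0.37, adjusted p = 0.035). Higher skeletal muscle genes numbered 1 without GF 3 and GF 4 and in the 6-library fit. Lower skeletal muscle genes numbered 1 without FO 1.

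Nerve and bone genes that passed went both ways, and most early response and heat shock genes did not pass. Of the 14 genes of the Schwann cell and nerve list, 13 were in the table and 10 passed the low-count filter, of which 3 were higher, 3 lower and 4 did not pass the test (median log2 fold change -1.30), beside 18.7% of all tested genes that passed in either direction. STMN2, of neurons, lay at 13.2 to 15.1 CPM in control testis and 49.6 to 105 CPM in FO (log2 fold change 2.42 ± 0.58, adjusted p = 0.0114). ERBB3, a receptor of Schwann cells, was lower, at 66.0 to 83.1 CPM in control testis and 15.7 to 32.0 CPM in FO (log2 fold change -1.65 ± 0.39, adjusted p = 0.0103). Of the 19 genes of the cartilage and bone list, 19 were in the table and 12 passed the low-count filter, of which 3 were higher, 2 lower and 7 did not pass the test (median log2 fold change 0.74). MGP, an inhibitor of calcification, read 56.4 and 62.1 CPM in the controls and 425, 210.1, 185 and 272 CPM in FO 1 to FO 4 (log2 fold change 2.20 ± 0.44, adjusted p = 0.00395). ALPL, alkaline phosphatase of bone and germ cells, stood at 55.6 and 58.6 CPM in the controls and 8.08, 9.14, 19.1 and 8.90 CPM in FO 1 to FO 4 (log2 fold change -2.33 ± 0.41, adjusted p = 0.00172). Of the 19 genes of the early response and heat shock list, 18 were in the table and 18 passed the low-count filter, of which 2 were higher, 1 lower and 15 did not pass the test (median log2 fold change 0.16). EGR1, an early response factor, read 39.6 and 34.1 CPM in the controls and 163, 131, 132 and 132 CPM in FO 1 to FO 4 (log2 fold change 1.92 ± 0.39, adjusted p = 0.00403). HSPH1, a heat shock protein, stood at 127 to 149.7 CPM in control testis and 32.1 to 48.9 CPM in FO (log2 fold change -1.88 ± 0.30, adjusted p = 0.000863).

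Most tested HOX genes, which record position along the body axis, did not pass. Of the 36 genes of the HOX list, 36 were in the table and 18 passed the low-count filter, of which 0 were higher, 3 lower and 15 did not pass the test (median log2 fold change 0.46). The share lower was 16.7%, beside 10.6% of all tested genes. All FO libraries lay above both controls in 6 of the 18 tested HOX genes and below both in 6. Of all tested genes 26.7% and 32% did so, shares not far from these. HOXD8 lay at 77.2 to 83.9 CPM in control testis and 31.6 to 39.6 CPM in FO (log2 fold change -1.18 ± 0.32, adjusted p = 0.0202). HOXD3 read 17.1 to 25.6 CPM in control testis and 1.95 to 8.26 CPM in FO (log2 fold change -2.19 ± 0.60, adjusted p = 0.0209). Higher adipocyte genes numbered 0 without control 1, control 2 or FO 2, 2 without FO 4 and 3 without GF 3 and GF 4 and in the 6-library fit. Lower adipocyte genes numbered 0 without control 1, control 2, FO 1 or FO 2 and 3 without GF 3 and GF 4 and in the 6-library fit. Higher Schwann and nerve genes numbered 1 without control 1 or control 2. Lower Schwann and nerve genes numbered 0 without control 1 or control 2. Higher cartilage and bone genes numbered 1 without control 1, 0 without control 2 and 5 without GF 3 and GF 4 and in the 6-library fit. Lower cartilage and bone genes numbered 1 without control 2. Higher early response and heat shock genes numbered 0 without control 1 or control 2 and 5 without GF 3 and GF 4 and in the 6-library fit. Lower early response and heat shock genes numbered 5 without GF 3 and GF 4 and in the 6-library fit. Higher HOX genes numbered 4 without GF 3 and GF 4 and in the 6-library fit. Lower HOX genes numbered 0 without control 1, control 2 or FO 1 and 1 without FO 2. FASN lost its call without control 1 (-1.20), control 2 (-1.25), FO 1 (-1.10), FO 2 (-1.18) or FO 4 (-1.19) and against a fold of 1.5. FABP4 passed the test by the DESeq2 Wald test (3.34), without GF 2 (3.32), without GF 3 (3.33), without GF 4 (3.29), without GF 3 and GF 4 (3.33) and in the 6-library fit (3.33). STMN2 lost its call without control 1 (2.31) or control 2 (2.51). ERBB3 lost its call without control 1 (-1.81) or control 2 (-1.48). MGP lost its call without control 1 (2.12) or control 2 (2.26). EGR1 lost its call without control 1 (2.02) or control 2 (1.80). HOXD8 lost its call without control 1 (-1.25), control 2 (-1.13), FO 1 (-1.17) or FO 4 (-1.12), after thinning to the lowest total (-0.98) and against a fold of 1.5. HOXD3 lost its call without control 1 (-1.88), control 2 (-2.46), FO 1 (-1.94) or FO 2 (-1.97).

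**Figure D5:**
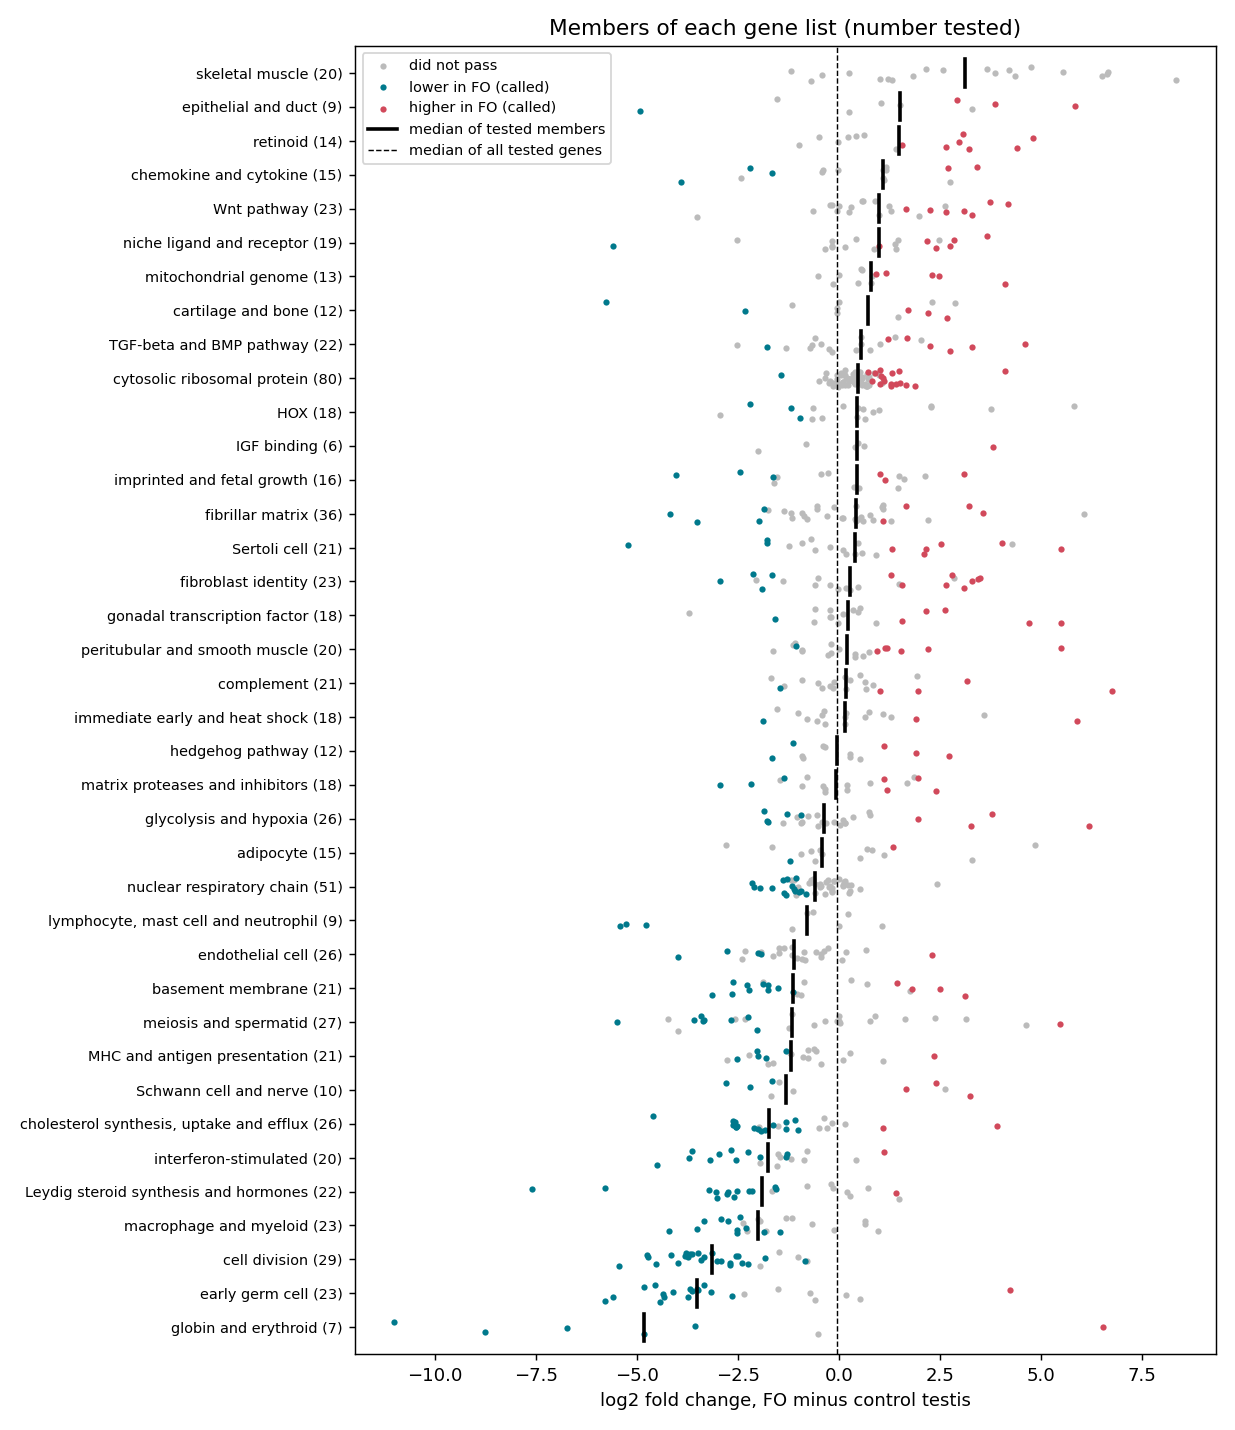
Log2 fold change of FO minus control testis (x axis) for each tested gene of each list (rows, 1 point per gene), with genes that passed in colour and the list median as a bar, beside the median of all tested genes at -0.04. The cell division list lies wholly below 0 with a median of -3.13, and the retinoid list has its median at 1.496.

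GF grafts, given germ cells as well, were read for the same genes as a scale for FO, in a fit of the 8 graft libraries that shares the FO libraries with the comparison above. In that fit 4205 of 13782 genes passed (30.5%). STAR was measured at 69.0, 33.2, 30.4 and 67.1 CPM in GF 1 to GF 4 and did not differ beyond the spread (GF minus FO -0.08 ± 0.46, adjusted p = 0.91), as with INSL3 at 2406, 1042, 1076 and 1607 CPM (0.41 ± 0.57, adjusted p = 0.614). KIT at 85.7, 70.6, 80.8 and 56.7 CPM gave 0.07 ± 0.25 (adjusted p = 0.856). These Leydig and KIT levels were thus low in both kinds of graft. CLU at 13699, 15697, 39129.8 and 43933 CPM and AMH at 45.2, 32.5, 136 and 188 CPM were higher in GF (2.30 ± 0.40 and 2.95 ± 0.67, adjusted p = 0.00159 and 0.00662). DDX4 at 59.4, 102, 56.3 and 46.7 CPM and SYCP3 at 33.4, 64.6, 81.1 and 41.8 CPM were higher too (5.78 ± 0.48 and 6.10 ± 0.63, adjusted p = 5.53e-05 and 0.000118). CFI, CRB2 and DCDC2, at 159, 139, 41.4 and 33.9, 41.1, 28.3, 9.67 and 17.3 and 34.5, 35.7, 60.8 and 30.8 CPM, were lower in GF (-3.37 ± 0.50, -2.19 ± 0.38 and -3.15 ± 0.31, adjusted p = 0.000718, 0.00153 and 9.79e-05). They belong to the genes selected for the largest rise in the same FO libraries. Of that selection CHL1, CLDN1, EFEMP1, GABBR2 and GAL3ST3 were also lower in GF. CDH20 was too, and lost its call without FO 1 (-1.44), FO 2 (-1.58), FO 3 (-1.61), FO 4 (-1.555) or GF 2 (-1.47). C6H1orf168 and CRTAC1 did not differ beyond the spread (0.05 ± 0.25 and 0.41 ± 0.31, adjusted p = 0.898 and 0.328). For STK32A, also of that selection, the GF minus FO value is not given here. AMH stood at 3.91 without FO 3. SYCP3 stood at 6.86 without FO 2.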

How the data were processed

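RNA of 10 libraries was measured with QuantSeq 3' mRNA-Seq after Trizol isolation, per the labels' protocols. The authors deposited 1 table of raw counts per gene name, with 27376 rows and 1 column per library. The submitters' processing notes list Sscrofa11.1 and DESeq2 1.42.0 without saying how each was used. How reads were aligned, counted and assigned to strands is not given in the sources used here, which leaves antisense and overlapping genes uncertain. Each column was assigned by its letters and number to the title that carries them, F being FO. Of the row names, 26849 were in the RefSeq table, 13 mitochondrial genes were named by locus tag, and 26 rows holding a date were never named.

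Genes were filtered with filterByExpr (minimum count 10) and scaled with TMM, and CPM use these factors. FO minus control was tested with edgeR 4.0.16 (quasi-likelihood, robust, R 4.3.3) over all 10 libraries, because 2 controls give little estimate of spread, and GF minus FO over the 8 graft libraries. Benjamini-Hochberg adjusted p under 0.05 was called. A gene at 0 in a group is given as a bound against 3 counts over the group, and one with 1 to 3 counts as a ratio whose exact 95% interval covers counting error only. The calculations were checked on simulated counts that gave every group the same mean and the same spread per gene, apart from genes given a set fold. That check cannot show how a spread that differs between groups affects the calls.

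Genes were named by rule. The first are the 12 highest and 12 lowest called genes by log2 fold change that have a symbol, show no overlap between groups and average 4 or more in log2 CPM. Further names are up to 4 members of lowest p per list, fixed testis, matrix and blood genes, and the 10 most abundant genes of each group. Some genes that the rule selects are counted in their lists without being named. The 38 lists hold 950 genes, 923 of them in the table, and were described by counts and medians with no set test. Members, lists and tests were chosen with earlier results of these data known. Alternatives were DESeq2 1.42.0, other scaling (RLE, total counts), the replicate number as a block, no filter, a fold threshold of 1.5, no robust estimation, no mitochondrial and haemoglobin genes, thinning, leaving out libraries, and the 6 FO and control libraries alone. Counts of list members under other fits were added after the data were seen. No batch is given in the labels.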

Additional observations from a re-analysis of the deposited data

Results flagged for a closer look

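In each group of 4 FO libraries the gap between the most extreme library and its nearest neighbour was compared with the range of the group, for 167 named genes, the summed levels of the lists and the library totals, 209 groups in all. 22 stood past Dixon's 95% critical value, where chance flags about 1 in 20 groups, and groups from the same 4 libraries are not independent.

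FO 1 was the separate library in most of them. It held 4033509 counts, the lowest FO total. Its skeletal muscle sum was 1123 CPM and its epithelial and duct sum 358 CPM, and its 13 mitochondrial genes summed to 129998 CPM. In FO 1 ACTA1 stood at 228 CPM, TNNC2 at 53.0 CPM and TNNT3 at 35.7 CPM, all skeletal muscle genes. NPC2 stood there at 3463 CPM, RPL34 at 7078 CPM, TGFB2 at 373 CPM, EGR1 at 163 CPM and KRT19 at 157 CPM. The other 3 FO libraries lay close together in each of these genes, and for NPC2, RPL34, TGFB2, EGR1 and KRT19 they too were above both controls.

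FO 3 was the separate library for AMH at 31.5 CPM, ALPL at 19.1 CPM, MS4A2 at 0.629 CPM (3 counts), WT1 at 354 CPM and MMP16 at 9.65 CPM. It was the highest of the 4 for AMH, ALPL and MS4A2 and the lowest for WT1 and MMP16. FO 4 was separate in the summed endothelial list, at 783 CPM, and for FABP4 at 48.7 CPM, SFRP2 at 23.7 CPM and ALDH1A1 at 98.1 CPM, the last as the lowest value. FO 2 was separate for TPM2 alone, at 206 CPM. What sets these libraries apart was not tested.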

How the results depend on the processing

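The count of 2972 genes (1290 higher, 1682 lower) was 1833 (822 higher, 1011 lower) against a fold of 1.5, 6510 (3142 and 3368) without GF 3 and GF 4, and 6600 (3267 and 3333) with only the 6 FO and control libraries, of which 2885 were among the 2972. Leaving out 1 library gave 796 to 3987 genes called, 325 to 1783 higher and 471 to 2243 lower. The lowest values came without control 2 (796) and control 1 (977, 389 higher and 588 lower), and 1118 were lower without FO 1. The remaining settings, with all libraries kept, gave between 2640 after thinning and 3772 by the DESeq2 Wald test. None of the 2972 genes changed sign in a setting that tested it, though all settings reuse the libraries on which the genes were called. Genes higher were 43.4% of those called, against 49.1% by DESeq2, 49.5% in the 6-library fit and 40% with total counts, where the median of all genes was -0.09. GF versus FO gave 4205 genes, 2456 against a fold of 1.5 and 2902 to 4842 without 1 library. Replicate numbers were not shown to pair the samples: same-numbered control and FO libraries deviated with r = 0.0307 and -0.0296, and GF and FO libraries with r = 0.0549, 0.218, 0.0764 and 0.103. With the replicate block 3219 genes passed, 2453 of them among the 2972, and 4335 in GF versus FO. Of the named genes ESRP1, MMRN1, CD68, HOXD8 and ND2 did not pass with the block (adjusted p = 0.0514, 0.0505, 0.0965, 0.0586 and 0.0844). The block moved the folds of AMH, CFI, COL4A1, CYP17A1, CYP19A3, DLK1, FBP2, FGFR3, HBB, HBM, HOXD3, LAPTM5, NR5A1, SLA-DRA and VWF by more than 1.5 times with no change of call. Among genes that did not pass, the log2 fold change of COX3 turned to -0.0632 with total counts and -0.0189 with no filter, and ran from -0.187 to 0.124 without 1 library. That of HSD3B1 ran from -0.00285 to 0.43 without 1 library, and MYH11 turned to -0.0651 with the replicate block. The causes were not tested. Depth limits genes under about 0.4 to 0.8 CPM, where 3 counts lie.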
